A study of Mus musculus with 26 samples.

Results

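The 8 genes described here, S100b, S100a1, S100a13, S100a16, S100a4, S100a6, S100a11 and S100a10, belong to the S100 family of small calcium-binding proteins. They were taken by symbol from the 54532 genes of the deposited count table, of which 32253 had at least 1 count, and all 8 were found. S100 proteins carry EF-hand loops, work mostly as dimers, and on binding calcium expose a surface that grips a partner such as an annexin, a myosin or a kinase. S100b is a classical marker of astrocytes, is also made by other glia, and can be released to act on the receptor Ager (RAGE). Several other members are widely expressed outside the nervous system, and S100a10 differs from the family in that it binds its annexin partner without calcium.

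RNA was measured in 26 libraries of untreated mice. Retina IP (6 libraries) was immunoprecipitated RNA enriched for retinal astrocytes, and Retina input (6 libraries) was its control RNA. ONH IP (7 libraries) and ONP IP (7 libraries) were immunoprecipitated astrocyte RNA of the optic nerve head, where axons leave the eye, and of the myelinated optic nerve proper. All RNA was selected by its poly(A) tail and amplified with a kit for very small amounts of RNA; the strain, age, tagged protein and its driver are not given in the sources used here. Replicate 7 of ONH IP and of ONP IP was sequenced in batch 2 with all 12 retinal libraries, and replicates 1 to 6 of both formed batch 1. The labels call these replicate 7 libraries adaptors, and per the submitters' design text they were sequenced there to control for batch. The labels do not say whether libraries came from separate animals, and the p-values therefore speak only of the variation from library to library.

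Total counts per library ran from 14703195 to 24966236 in Retina IP, 14812762 to 26407745 in ONH IP, 14051088 to 27431026 in ONP IP and 11164619 to 18417001 in Retina input. Levels are given in CPM, in which each count is scaled by the total of its library. The summed level of 8 astrocyte markers was 6730 to 31200 CPM in Retina IP, 5810 to 27300 CPM in ONH IP, 9380 to 34600 CPM in ONP IP and 3430 to 6270 CPM in Retina input, with none of the 8 at 0 in any group. These sums hide differences between single markers. Aldoc averaged 13000 CPM in Retina IP, against 2190 CPM in ONH IP and 2170 CPM in ONP IP. Gfap averaged 1890 CPM, against 10800 and 13200 CPM. In edgeR's test (adjusted p under 0.05), 1 marker was higher and 3 lower in Retina IP than in ONH IP. Of all genes, 12.7% were higher and 21.1% lower there. Against ONP IP 1 was higher and 4 lower, where 12.9% of all genes were higher and 19.9% lower. Markers of other cell types were present in the IP libraries too. The 5 Muller glia markers summed to 6340 to 24800 CPM in Retina IP, against 5430 to 10100 CPM in ONH IP and 5570 to 13100 CPM in ONP IP. In Retina input they summed to 2070 to 7430 CPM. Among them, Clu averaged 7740 CPM in Retina IP, 5700 CPM in ONH IP and 6550 CPM in ONP IP. Rlbp1 averaged 1740, 365 and 115 CPM in the same groups. Clu thus made up most of the nerve sums, which do not show the presence or amount of Muller glia there. The 8 oligodendrocyte markers summed to 55.9 to 166 CPM in Retina IP, against 27400 to 69500 CPM in ONH IP and 34900 to 114000 CPM in ONP IP. The 7 ganglion cell markers summed to 905 to 5430 CPM in Retina IP, against 19.4 to 216 CPM in ONH IP and 11.7 to 37.1 CPM in ONP IP. Single libraries stood apart: 7 rod markers reached 42700 CPM in ONH IP replicate 7, against a median of 455 CPM in its group, and mitochondrial transcripts took 8.16% and 15.2% of counts in Retina input replicates 1 and 2, against 2.79% to 4.01% in the other Retina input libraries.

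S100b lies on chromosome 10 (mm10, 76253853 to 76261159, plus strand), and the other 7 genes lie on chromosome 3. S100a1 (90511034 to 90514392, minus strand) and S100a13 (90514435 to 90524581, plus strand) point away from each other, with 42 bases between their annotated starts. S100a16 (90537254 to 90543151), S100a4 (90603771 to 90606045) and S100a6 (90612882 to 90624181) follow on the plus strand. S100a11 (93520488 to 93526287) and S100a10 (93555080 to 93564643), also on the plus strand, sit 28792 bases apart and 2896306 bases beyond S100a6. The segment between S100a1 and S100a13 (chr3:90514393-90514434, GRCm38.p6, plus strand) is shown because it is all that separates these starts.
S100a1 to S100a13: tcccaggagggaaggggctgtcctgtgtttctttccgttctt
The 250 bases before the start are shown for S100b, whose level in retina overlapped that in optic nerve, and for S100a6 and S100a11, which were far lower in retina. They are from RefSeq (GRCm38.p6, plus strand), at chr10:76253586-76253835, chr3:90612644-90612893 and chr3:93520246-93520495. Capitals mark matches to 4 motifs searched on both strands: the TATA box (TATAAA), the GC box (GGGCGG), the CCAAT box and the AP-1 motif (TGANTCA).
S100b: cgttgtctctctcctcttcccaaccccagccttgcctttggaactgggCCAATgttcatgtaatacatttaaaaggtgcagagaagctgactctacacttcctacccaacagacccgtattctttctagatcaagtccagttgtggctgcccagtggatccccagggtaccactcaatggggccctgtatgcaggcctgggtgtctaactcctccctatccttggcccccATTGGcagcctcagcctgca
S100a6: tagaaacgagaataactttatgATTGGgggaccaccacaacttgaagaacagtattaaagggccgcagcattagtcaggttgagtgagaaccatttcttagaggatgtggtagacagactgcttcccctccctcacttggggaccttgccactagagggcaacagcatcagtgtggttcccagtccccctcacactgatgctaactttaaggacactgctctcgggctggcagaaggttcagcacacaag
S100a11: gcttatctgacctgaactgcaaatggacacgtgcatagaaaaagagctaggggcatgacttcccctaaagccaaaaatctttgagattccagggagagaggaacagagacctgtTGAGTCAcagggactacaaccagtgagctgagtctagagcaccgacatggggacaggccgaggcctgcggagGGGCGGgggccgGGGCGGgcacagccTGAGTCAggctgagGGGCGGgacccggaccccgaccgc
The S100b window held 2 CCAAT matches, the S100a6 window 1 CCAAT match, and the S100a11 window 3 GC boxes and 2 AP-1 matches, none of them overlapping another. Of the windows of the other members, S100a4 held 1 TATAAA match, the upstream of the 2 S100a16 windows held no match and the other held 1 GC box and 1 AP-1 match, and those of S100a1 and S100a13 held none. RefSeq windows were found for 7 of the 8 members, and S100a10 was the exception. Among all 32851 windows of this length, 12.4% held a TATA box, 32.7% a GC box, 33.8% a CCAAT box and 6.75% an AP-1 motif, so a match describes the letters and nothing more. Sequence shared with other genes bears on the counts of 2 members. Of the 31-base stretches of S100a4 transcripts, 49.2% also occurred in the gene model Gm42674, which had 0 counts in Retina IP, 6 in ONH IP, 13 in ONP IP and 0 in Retina input. Of those of S100a11, 48.9% also occurred in other genes, mainly processed pseudogenes such as Gm12854, which had 10 counts in Retina IP, 35 in ONH IP, 10 in ONP IP and 8 in Retina input, so both levels are uncertain to that extent. The other 6 members shared at most 0.424%.

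Compared per kilobase of exon, the 8 genes spanned a wide range and their order differed between tissues. In ONH IP the highest mean was that of S100a1 at 1060 CPM per kb, followed by S100b at 908 and S100a16 at 816. In ONP IP the same genes came first, with S100a1 at 788, S100b at 778 and S100a16 at 694 CPM per kb. In both regions each of these 3 means lay within an SD of the next, taking the larger SD of each pair. In ONH IP they were followed by S100a6 at 424, S100a13 at 143, S100a11 at 106 and S100a10 at 69.9 CPM per kb, of which only S100a13 and S100a11 lay within their spread, and S100a4 was last at 2.86. In ONP IP the order was the same, with S100a6 at 230, S100a13 at 104, S100a11 at 64.0, S100a10 at 41.0 and S100a4 at 1.58 CPM per kb, and each of S100a6 to S100a10 lay within an SD of the next. In Retina IP, S100b came first with 646 CPM per kb, followed by S100a1 (228), S100a16 (143) and S100a10 (66.9), again each within an SD of the next. S100a13 (18.2) and S100a6 (17.1) were lower and did not differ beyond their spread, and S100a11 (8.36) and S100a4 (0.0986) came last. In Retina input, S100a1 (260), S100a10 (152), S100b (148) and S100a16 (80.1) were each within an SD of the next, as were S100a13 (18.7), S100a6 (11.6) and S100a11 (11.1) below them, and S100a4 (0.418) was last. The order of neighbours depends on the exon length used. Per kilobase of the longest transcript, S100a16 came first in ONH IP (1170, against 1090 for S100a1) and in ONP IP (996, against 808 for S100a1). On that scale S100a6 had 741 and S100a10 had 124 CPM per kb in ONH IP, so S100a10 came before S100a11.

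**Figure D1:**
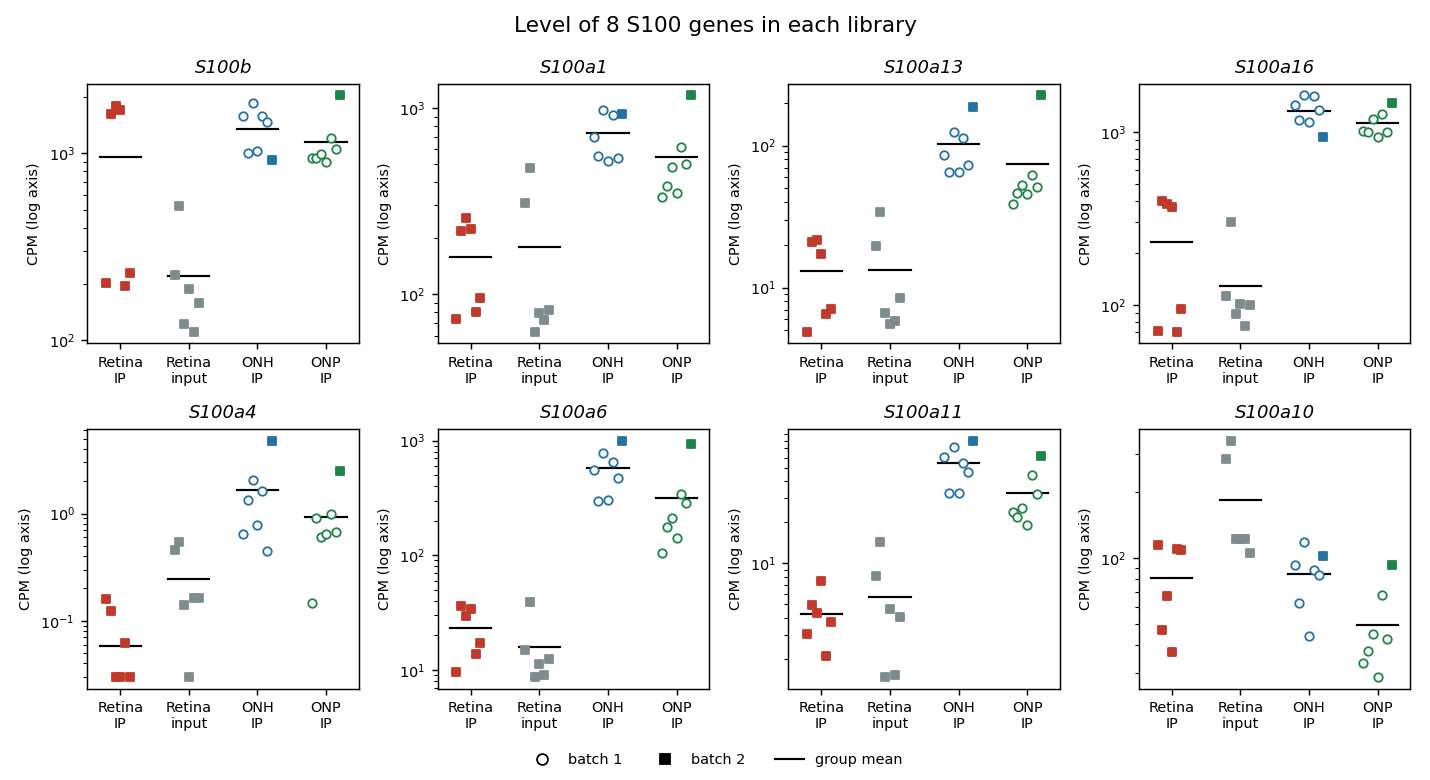
Level of each S100 gene in each of the 26 libraries, in CPM on a log axis that differs between panels, by group, with circles for batch 1, squares for batch 2 and a line at the group mean; the S100a4 libraries at 0 are drawn at the foot of their panel. S100a1, S100a13, S100a16, S100a6 and S100a11 lie lower in every Retina IP library than in any ONH IP or ONP IP library, while S100b and S100a10 overlap.

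The first question was how S100 expression in retinal astrocyte RNA differs from that in optic nerve astrocyte RNA. All 8 members passed the filter on low counts, but S100a4 did so through the nerve libraries alone, so that it could only be tested as a gene lower in retina, and it is kept out of the counts and medians here. In edgeR's quasi-likelihood test, 5 of the other 7 members were lower in Retina IP than in ONH IP and 0 were higher, where 21.1% of all genes tested were lower and 12.7% higher. The same 5 genes, S100a1, S100a13, S100a16, S100a6 and S100a11, were lower in Retina IP than in ONP IP and 0 were higher, where 19.9% of all genes were lower and 12.9% higher. S100b and S100a10 did not pass in either comparison. The median log2 fold change over these 7 members was -3.11 against ONH IP (-0.13 over all genes) and -2.65 against ONP IP (-0.10 over all genes). CPM ranges lay apart, with Retina IP lower, for 5 of the 7 against ONH IP, where this held for 12.2% of genes, and for 5 against ONP IP, where it held for 13.1% of genes. The comparisons share the Retina IP libraries. In bulk RNA, fewer cells of a type and less RNA per cell cannot be told apart.

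S100b, the astrocyte marker, varied widely between Retina IP libraries. Its lowest, median and highest levels were 195, 924 and 1800 CPM in Retina IP, against 921, 1470 and 1860 CPM in ONH IP and 903, 993 and 2040 CPM in ONP IP. The Retina IP libraries split, with none between 228 and 1620 CPM: replicates 2, 3 and 4 reached 1620, 1800 and 1710 CPM, inside the range of both nerve regions, and replicates 1, 5 and 6 had 203, 195 and 228 CPM, below every nerve library. The log2 fold change was -0.89 (SE 0.733, adjusted p = 0.363, edgeR) against ONH IP and -0.69 (SE 0.669, adjusted p = 0.464) against ONP IP. The SE leaves room for a difference in either direction, and the estimate turned to 0.20 against ONH IP when only batch 2 was fitted.

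S100a1 and S100a13, the head-to-head pair, were both lower in retina. S100a1, known in heart muscle for its action on the calcium pump and the ryanodine receptor, ranged from 74.1 to 256 CPM in Retina IP (median 157), against 523 to 978 CPM in ONH IP (median 698) and 332 to 1170 CPM in ONP IP (median 483). No Retina IP library reached the lowest nerve library. Its log2 fold change was -3.11 (SE 0.421, adjusted p = 1.86e-05) against ONH IP and -2.65 (SE 0.399, adjusted p = 4.62e-05) against ONP IP. S100a13, known to take part in the release of Fgf1 from cells, ranged from 4.89 to 21.7 CPM in Retina IP (median 12), against 64.9 to 188 CPM in ONH IP (median 85.5) and 38.7 to 226 CPM in ONP IP (median 51.3). Here too the ranges lay apart, and the log2 fold changes were -4.45 against ONH IP (SE 0.442, adjusted p = 3.71e-07) and -3.85 against ONP IP (SE 0.417, adjusted p = 9.68e-07). Per kilobase, S100a13 had a lower mean level than S100a1 in every group.

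S100a16, a broadly expressed member of the family, was one of the most abundant S100 transcripts of the optic nerve. It ranged from 70.2 to 401 CPM in Retina IP (median 232), against 934 to 1620 CPM in ONH IP (median 1330) and 934 to 1470 CPM in ONP IP (median 1010). The ranges lay apart, and the log2 fold change was -2.60 (SE 0.527, adjusted p = 0.000924) against ONH IP and -2.43 (SE 0.495, adjusted p = 0.000886) against ONP IP. This was the smallest of the called differences, and it was not past the threshold with only the Retina IP and ONH IP libraries (-2.03, adjusted p = 0.075) or, against ONP IP, without ONP IP replicate 7 (-1.75, adjusted p = 0.129).

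S100a6 and S100a11 were lower in retina too. They and S100a4 are known for roles at the cytoskeleton and the cell membrane. S100a6 (calcyclin), which binds the ubiquitin-ligase adaptor Cacybp and several annexins, ranged from 9.61 to 36.2 CPM in Retina IP (median 23.2), against 299 to 1000 CPM in ONH IP (median 553) and 105 to 942 CPM in ONP IP (median 211). Its log2 fold changes were -6.08 against ONH IP (SE 0.497, adjusted p = 2.86e-08), or 67.6-fold lower in Retina IP, and -5.04 against ONP IP (SE 0.465, adjusted p = 1.15e-07), or 32.8-fold lower. These folds come from the fit with the batch term and are larger than those of the mean levels. The means were 23.4 CPM in Retina IP, 580 CPM in ONH IP and 315 CPM in ONP IP. S100a11, a partner of annexin A1, ranged from 2.09 to 7.49 CPM in Retina IP (median 4.03), against 32.9 to 79.9 CPM in ONH IP (median 54.9) and 19.2 to 61.6 CPM in ONP IP (median 25.7). Its log2 fold changes were -4.49 against ONH IP (SE 0.368, adjusted p = 2.88e-08) and -3.78 against ONP IP (SE 0.358, adjusted p = 1.63e-07), and both sets of ranges lay apart. S100a4, which binds non-muscle myosin heavy chain Myh9 and is used as a marker of fibroblasts, was near the limit of detection everywhere. It had 8 counts over the 6 Retina IP libraries, 3 of which had 0, against 236 counts over the 7 ONH IP libraries and 111 counts over the 7 ONP IP libraries. These counts gave 0 to 0.16 CPM in Retina IP, against 0.449 to 4.79 CPM in ONH IP and 0.146 to 2.49 CPM in ONP IP, so that its range overlapped that of ONP IP. The fitted log2 fold changes of S100a4, -6.09 against ONH IP (SE 0.829) and -5.34 against ONP IP (SE 0.835), are given as a description, since the filter fixed their direction and so few retinal counts leave their size poorly fixed.

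S100a10, the p11 subunit that pairs with annexin A2 at the cell membrane, was not called in either comparison. It ranged from 37.4 to 115 CPM in Retina IP (median 88.4), against 44.2 to 119 CPM in ONH IP (median 88.5) and 28.7 to 92.8 CPM in ONP IP (median 42.6). All groups overlapped. Its log2 fold change was -0.75 (SE 0.439, adjusted p = 0.194) against ONH IP and 0.02 (SE 0.433, adjusted p = 0.984) against ONP IP. Within Retina IP it ran the other way from S100b: replicates 1, 5 and 6 had 115, 110 and 109 CPM and replicates 2, 3 and 4 had 47.0, 67.5 and 37.4 CPM.

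**Figure D2:**
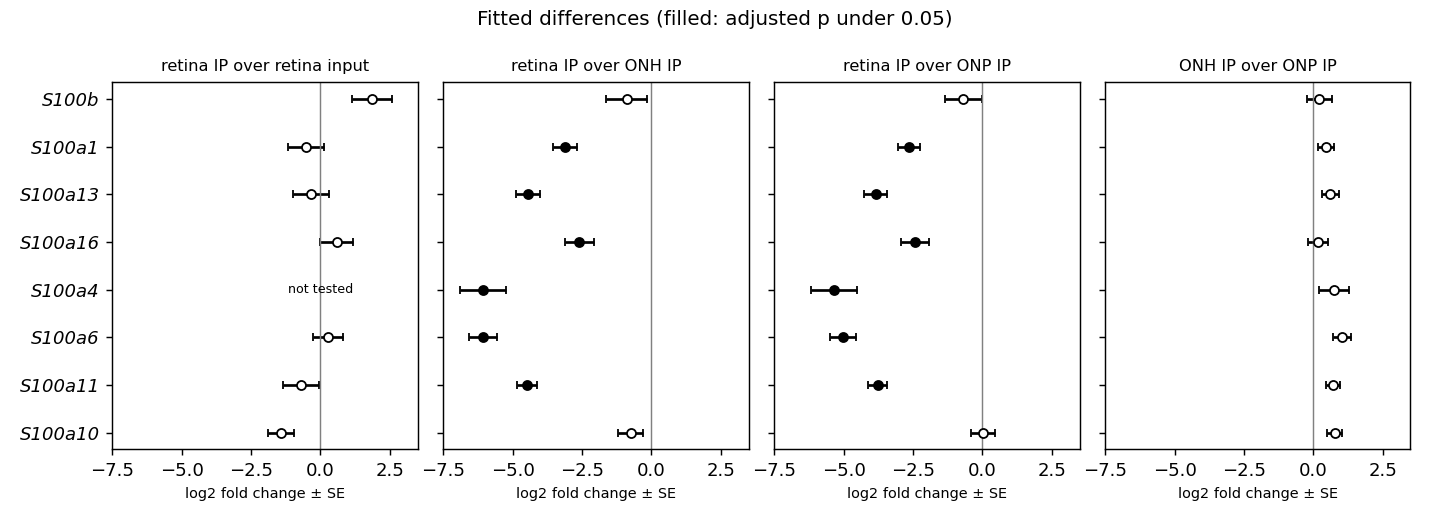
Fitted log2 fold change of each S100 gene, with its SE as the bar, in the 4 comparisons; filled points passed an adjusted p of 0.05. S100a4 was too low to be tested between Retina IP and Retina input and passed the filter in the other comparisons through the nerve libraries alone. The 6 filled points against ONH IP run from -6.09 to -2.60 and the 6 against ONP IP from -5.34 to -2.43.

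Batch and region overlap in this design, since batch 1 held no retinal library, and the batch term rests on the 2 replicate 7 libraries. Within batch 2 each nerve region has 1 library, so the spread comes from the 6 Retina IP libraries, the lone nerve library is assumed to vary like them, and the ONH library is the one rich in rod markers. Against ONH IP within batch 2, S100a6 (-5.29), S100a11 (-4.09) and S100a13 (-3.72) were called, where 3.62% of all genes were lower, and S100a1 (-2.43, adjusted p = 0.0771) and S100a16 (-1.88, adjusted p = 0.305) were not. Against ONP IP within batch 2, S100a6 (-5.25), S100a13 (-4.03), S100a11 (-3.76) and S100a1 (-2.81) were called, where 4.71% of genes were lower, and S100a16 (-2.59, adjusted p = 0.107) was not. The differences against ONP IP also lean on ONP IP replicate 7. Without it they were -4.26 for S100a6, -3.48 for S100a11, -3.14 for S100a13 and -2.0 for S100a1, all called. There 1588 of 16264 genes were called lower. The estimates against ONH IP in the fit without that library were -5.48 for S100a6, -4.27 for S100a11, -3.90 for S100a13, -2.61 for S100a1 and -2.07 for S100a16. Without ONH IP replicate 7 they were -6.67 for S100a6 and -5.01 for S100a13. When replicate 7 of ONH IP and of ONP IP and the batch term were left out, a choice made after seeing the data in which batch and region cannot be told apart, the same 5 genes were called in both comparisons. There 29.4% of all genes were lower than in ONH IP, and 29.3% were lower and 29.6% higher than in ONP IP. The differences were -4.59 for S100a6, -2.90 for S100a13, -2.29 for S100a1 and -2.73 for S100a16 against ONH IP, and -3.38, -2.13, -1.69 and -2.41 for the same genes against ONP IP. In that fit S100a10 was called higher in Retina IP than in ONP IP (0.75, adjusted p = 0.0365).

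Set against S100b in the same library, 4 of the other 7 members were still lower in every Retina IP library than in any ONH IP library: S100a13, S100a16, S100a6 and S100a11. This pattern was found for 3.72% of all genes. The same 4 were lower than in any ONP IP library, where the pattern was found for 3.58% of genes. The CPM of S100a16 per CPM of S100b was 0.212 to 0.415 in Retina IP, against 0.871 to 1.17 in ONH IP and 0.721 to 1.19 in ONP IP. That of S100a6 was 0.0164 to 0.0748 in Retina IP, against 0.294 to 1.09 in ONH IP and 0.111 to 0.461 in ONP IP. For S100a13 it was 0.0100 to 0.0331 in Retina IP, against 0.0495 to 0.204 in ONH IP and 0.0409 to 0.110 in ONP IP. For S100a1 the ratios overlapped, at 0.132 to 0.420 in Retina IP, against 0.369 to 1.01 in ONH IP and 0.351 to 0.573 in ONP IP. These ratios are a description without a test. Markers of other cells moved with the region as well: the 6 fibroblast markers summed to 19.8 to 154 CPM in Retina IP, against 525 to 1150 CPM in ONH IP and 201 to 1150 CPM in ONP IP. The 8 microglia and macrophage markers summed to 51.7 to 177 CPM in Retina IP, against 262 to 2660 CPM in ONH IP and 304 to 3500 CPM in ONP IP. Like that of the oligodendrocyte and Muller glia markers given above, their part in the S100 differences was not tested.

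Between the nerve regions, 0 of the 8 members passed edgeR's test, where 7.48% of all genes did. All 8 estimates were above 0, with a median log2 fold change of 0.66 for ONH IP over ONP IP (0.02 over all genes). At an unadjusted p under 0.05 in edgeR's test, 3 members were higher in ONH IP and 0 lower. Of the 16355 genes tested, 2053 were higher and 1750 lower at that threshold. S100a6 averaged 580 ± 256 CPM in ONH IP and 315 ± 288 CPM in ONP IP (SD, n = 7 each), a log2 fold change of 1.04 (SE 0.328, adjusted p = 0.0572). S100a11 averaged 54.3 ± 18.1 CPM in ONH IP and 32.7 ± 15.3 CPM in ONP IP (0.71, SE 0.248, adjusted p = 0.0838). S100a10 averaged 84.8 ± 24.8 CPM in ONH IP and 49.7 ± 22.9 CPM in ONP IP (0.77, SE 0.278, adjusted p = 0.0982). The other estimates were 0.75 for S100a4, 0.61 for S100a13, 0.46 for S100a1, 0.21 for S100b and 0.17 for S100a16. No member had CPM ranges that lay apart, which was found for 2.08% of genes. ONP IP replicate 7, the batch 2 library, was the highest ONP library for all 8 members. Within batch 1, where 8.57% of all genes were called higher in ONH IP, edgeR called 4 members higher in ONH IP: S100a6 (1.21, adjusted p = 0.0177), S100a10 (0.89, adjusted p = 0.0214), S100a13 (0.76, adjusted p = 0.0147) and S100a11 (0.79, adjusted p = 0.0324). In a fit of the nerve libraries alone with replicate number as a block, edgeR called the same 4 members higher in ONH IP. These were S100a6 (1.06, adjusted p = 0.0105), S100a10 (0.77, adjusted p = 0.00788), S100a13 (0.59, adjusted p = 0.0282) and S100a11 (0.72, adjusted p = 0.00874). There 1481 of 14799 genes were called higher in ONH IP. The regions were not compared within batch 2, which held 1 library of each. Markers of other cells moved between the nerve regions as well. The 5 pigment cell markers summed to 25.5 to 397 CPM in ONH IP, against 2.39 to 13.4 CPM in ONP IP, and all 5 were called higher in ONH IP. Tyr and Mlana, however, passed the filter through the ONH IP libraries alone, so they could only be tested as genes higher there. The 7 rod markers summed to 34.6 to 42700 CPM in ONH IP, against 3.61 to 527 CPM in ONP IP, and all 7 were called higher. The 8 oligodendrocyte markers summed to 27400 to 69500 CPM in ONH IP, against 34900 to 114000 CPM in ONP IP, with 2 called lower in ONH IP. The 5 markers of oligodendrocyte precursors summed to 401 to 882 CPM in ONH IP, against 987 to 1490 CPM in ONP IP, with 1 called lower. Their part in the S100 estimates was not tested.

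The comparison of Retina IP with Retina input asked which transcripts the immunoprecipitation enriched. edgeR called 0 of the 7 members tested, and 0% of the 15181 genes tested. At an unadjusted p under 0.05, S100b was higher and S100a10 lower in Retina IP, as were 1771 and 1585 of all genes. The mean level of S100b was 958 ± 823 CPM in Retina IP, against 220 ± 152 CPM in Retina input (SD, n = 6 each), a log2 fold change of 1.86 (SE 0.720, adjusted p = 0.146). That of S100a10 was 81.0 ± 34.7 CPM in Retina IP, against 184 ± 103 CPM in Retina input (-1.43, SE 0.467, adjusted p = 0.0957). DESeq2 called S100a10 (-1.58, adjusted p = 0.0158) and 13.4% of all genes, and a fit of all 26 libraries called S100b (1.73, adjusted p = 0.0294), S100a10 (-1.50, adjusted p = 0.0102) and 16.7% of all genes. The other estimates were 0.58 for S100a16, 0.28 for S100a6, -0.34 for S100a13, -0.51 for S100a1 and -0.70 for S100a11, with adjusted p from 0.586 to 0.830. S100a4 had 8 counts in Retina IP and 20 in Retina input and was too low to be tested. No member had CPM ranges that lay apart, which was found for 4.63% of genes.

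Retina input replicates 1 and 2, those with the most mitochondrial reads, also held the most S100a1 (308 and 478 CPM, against 63.0 to 82.2 CPM in the other 4), S100a13 (19.5 and 34.3 CPM, against 5.53 to 8.45 CPM) and S100a10 (285 and 345 CPM, against 106 to 123 CPM). Without these libraries the S100a10 estimate was -0.52 (adjusted p = 0.297) and that of S100b 2.86 (adjusted p = 0.0942). Those of S100a1 and S100a13 were 1.19 and 1.08, and edgeR called none of the 4 genes there. On the IP side, the level of most members split the libraries. Replicates 2, 3 and 4 had 218, 256 and 225 CPM of S100a1, against 74.1, 80.1 and 95.8 CPM in replicates 1, 5 and 6. For S100a16 they had 401, 382 and 369 CPM, against 70.7, 70.2 and 94.7 CPM. The astrocyte markers summed to 19000, 27100 and 31200 CPM in replicates 2, 3 and 4 and to 6730, 7270 and 9030 CPM in replicates 1, 5 and 6. The split was not particular to astrocyte markers. Muller glia markers summed to 20700, 24800 and 24500 CPM, against 7290, 6340 and 11100 CPM. Summed pericyte and smooth muscle markers (948, 756 and 907 CPM, against 135, 131 and 129 CPM) and fibroblast markers (107, 92.9 and 154 CPM, against 19.8, 26.2 and 27.6 CPM) split likewise. The former sum was mostly Rgs5, at a mean of 494 CPM in Retina IP, with every other gene of its list at most 4.48 CPM. The latter was mostly Fbln1, at 62.9 CPM, with every other gene at most 6.77 CPM. These sums therefore describe mainly those genes and not the cell types. The ganglion cell markers ran the other way, with 2220, 1500 and 905 CPM and with 5430, 4750 and 4970 CPM. So did the microglia and macrophage markers, with 118, 52.9 and 51.7 CPM and with 157, 177 and 128 CPM. These libraries were not compared as groups, since the labels do not separate them.

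**Figure D3:**
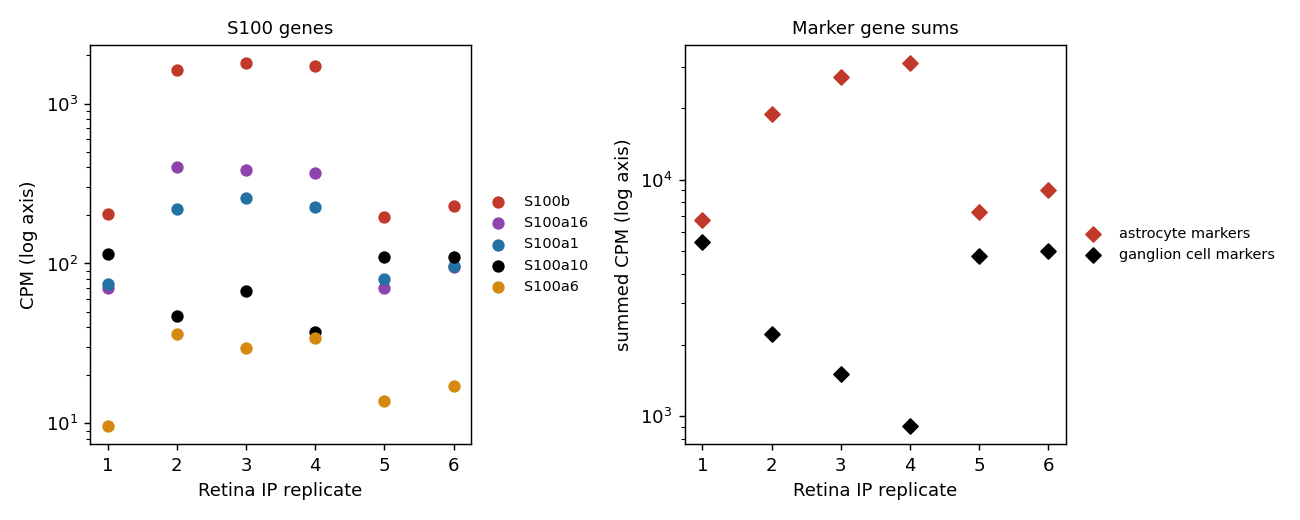
Level of 5 S100 genes (left) and summed level of astrocyte and ganglion cell markers (right) in the 6 Retina IP libraries, in CPM on log axes, against replicate number. S100b, S100a16, S100a1 and S100a6 are higher in replicates 2, 3 and 4 than in 1, 5 and 6, as are the astrocyte markers, and S100a10 and the ganglion cell markers are lower there.

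Of the other S100 genes, 9 were listed, 8 were found in the table and 2 passed the filter on low counts, which both did through the nerve libraries. Their values are therefore given without a test. S100a3 averaged 0.235 CPM in Retina IP, against 11.8 CPM in ONH IP and 6.16 CPM in ONP IP. S100a7a averaged 0.0595 CPM in Retina IP, against 1.45 CPM in ONH IP and 1.15 CPM in ONP IP. The 8 genes found summed to at most 1.43 CPM in any Retina IP library, 19.3 CPM in any ONH IP library, 10.5 CPM in any ONP IP library and 6.21 CPM in any Retina input library.

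The list of 20 S100 partners and receptors was mixed: 4 were higher and 5 lower in Retina IP than in ONH IP, and 3 were higher and 4 lower than in ONP IP. Among all genes tested, 12.7% were higher and 21.1% lower than in ONH IP, and 12.9% were higher and 19.9% lower than in ONP IP. The median log2 fold change of the list was 0.38 against ONH IP (-0.13 over all genes) and 0.37 against ONP IP (-0.10 over all genes). Ager, Myh9 and Ryr2 passed the filter through 1 side alone, and over the other 17 genes the medians were 0.45 and 0.46. The counts lean on ONP IP replicate 7. Without it they were 2 higher and 5 lower against ONH IP, and 1 higher and 4 lower against ONP IP. Of 16264 genes in that fit, 722 were higher and 2262 lower than in ONH IP. Against ONP IP, 567 were higher and 1588 lower. In that fit the list's median against ONP IP was -0.07. The members lower in Retina IP included Anxa2 and Plat, tissue plasminogen activator, which both bind S100a10. Anxa2 ranged from 113 to 140 CPM in Retina IP, against 790 to 2070 CPM in ONH IP and 544 to 1290 CPM in ONP IP (-2.94 against ONH IP, adjusted p = 4.35e-08, and -2.01 against ONP IP, adjusted p = 3.93e-06). Plat ranged from 20.8 to 43.6 CPM in Retina IP, against 410 to 1470 CPM in ONH IP and 336 to 1710 CPM in ONP IP (-3.68 against ONH IP, adjusted p = 5.22e-08, and -3.45 against ONP IP, adjusted p = 9.75e-08). S100a10 itself overlapped between these groups while both partners lay apart. Ager, the receptor for extracellular S100b, ranged from 0 to 1.09 CPM in Retina IP, against 24.0 to 64.1 CPM in ONH IP and 14.5 to 57.2 CPM in ONP IP. It is among the genes counted as lower, but it passed the filter through the nerve libraries alone, so its levels are given as a description. The scaffold gene Ahnak, another partner of the S100a10 and annexin A2 complex, is on the list and among the genes counted, and it is named here after its values were seen. It averaged 9.72 CPM in Retina IP, against 124 CPM in ONH IP and 97.4 CPM in ONP IP (-3.08 against ONH IP, adjusted p = 5.27e-05, and -2.83 against ONP IP, adjusted p = 6.85e-05).

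Among partners higher in Retina IP was Fgf1, the growth factor released with S100a13, at a mean of 226 CPM in Retina IP, against 72.5 CPM in ONH IP and 110 CPM in ONP IP (1.88 against ONH IP, adjusted p = 0.003, and 1.22 against ONP IP, adjusted p = 0.0334, but 1.21 with adjusted p = 0.228 without ONP IP replicate 7 and 1.23 with adjusted p = 0.113 without ONH IP replicate 7). S100a13 itself was lower there. Anxa6, which binds several S100 proteins, averaged 299 CPM in Retina IP, against 223 CPM in ONH IP and 176 CPM in ONP IP (1.32 against ONH IP, adjusted p = 0.00112, and 1.57 against ONP IP, adjusted p = 0.000205). The actin-capping gene Capza1 was higher than in ONH IP (0.75, adjusted p = 0.029, but 0.97 with adjusted p = 0.065 without ONH IP replicate 7 and 0.60 with adjusted p = 0.232 without ONP IP replicate 7). Syt1, a synaptic vesicle protein of neurons, was higher than in ONP IP (4.10, adjusted p = 0.0242, but 2.65 with adjusted p = 0.259 without ONP IP replicate 7 and 7.38 with adjusted p = 0.00542 without ONH IP replicate 7). Between the nerve regions 2 partners were called, both higher in ONH IP: Anxa2, with 1670 CPM in ONH IP and 816 CPM in ONP IP (0.93, adjusted p = 0.00265), and Anxa1, with 91.6 CPM in ONH IP and 22.3 CPM in ONP IP (2.03, adjusted p = 0.0336, but 1.86 with adjusted p = 0.0721 without ONH IP replicate 7 and 0.072 without ONP IP replicate 7). Over all genes, 725 of 16355 were called higher in ONH IP than in ONP IP and 498 lower. None of 19 partners tested was called between Retina IP and Retina input by edgeR. At an unadjusted p under 0.05, 6 were higher there, as were 1771 of the 15181 genes tested.

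**Figure D4:**
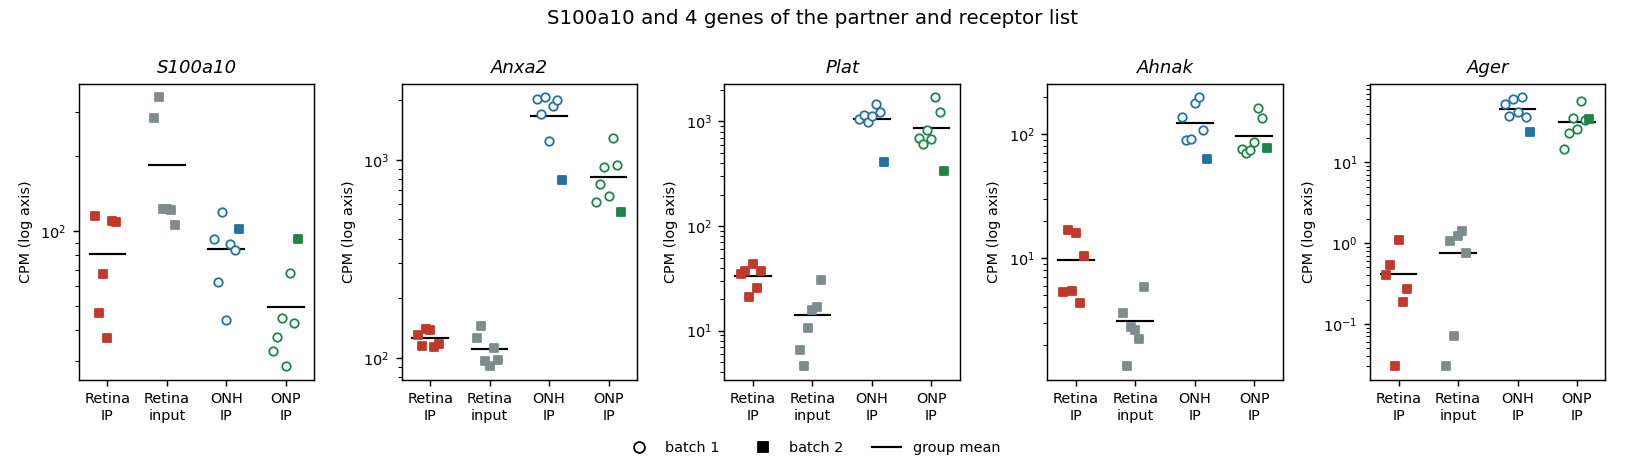
Level of S100a10 and of 4 genes of the partner and receptor list in each of the 26 libraries, in CPM on log axes that differ between panels, with circles for batch 1, squares for batch 2 and a line at the group mean; Ager libraries at 0 are drawn at the foot of the panel. Anxa2, Plat, Ahnak and Ager are lower in every Retina IP library than in any ONH IP or ONP IP library, while S100a10 overlaps.

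More of the 22 other EF-hand calcium sensors and buffers were higher than lower in Retina IP, with a median log2 fold change of 0.91 against ONH IP (-0.13 over all genes) and 1.27 against ONP IP (-0.10 over all genes). Of these, 10 were higher and 6 lower in Retina IP than in ONH IP, where 12.7% of all genes were higher and 21.1% lower. Against ONP IP 11 were higher and 2 lower, where 12.9% of all genes were higher and 19.9% lower. The counts lean on the replicate 7 libraries: against ONH IP they were 7 higher and 2 lower without ONH IP replicate 7, and against ONP IP they were 6 higher and 1 lower without ONP IP replicate 7. Over all genes, 1640 of 16145 were higher and 2478 lower in the former fit. In the latter, 567 of 16264 were higher and 1588 lower. Calb1 and Cabp5 passed the filter through the retinal libraries alone, and Cabp5 is among the 11 genes higher than in ONP IP. With this pair set aside, the median was 0.94 against ONP IP and stayed at 0.91 against ONH IP. The 20 remaining genes gave 10 higher calls and 2 lower calls against ONP IP. Against ONH IP they gave 10 higher calls and 5 lower calls. Calb2 (calretinin), a calcium buffer of retinal neurons, averaged 2790 CPM in Retina IP, against 17.5 CPM in ONH IP and 4.24 CPM in ONP IP (5.74 against ONH IP, adjusted p = 0.000376, and 6.56 against ONP IP, adjusted p = 0.0002). Hpcal1, a neuronal calcium sensor, averaged 225 CPM in Retina IP, against 44.2 CPM in ONH IP and 23.7 CPM in ONP IP (1.92 against ONH IP, adjusted p = 0.00013, and 2.72 against ONP IP, adjusted p = 5.18e-06). Vsnl1 was higher in Retina IP than in ONH IP (5.10, adjusted p = 0.000948) and Hpca higher than in ONP IP (6.32, adjusted p = 0.000392), both neuronal sensors. Vsnl1 averaged 1.08 CPM in ONH IP and Hpca 0.325 CPM in ONP IP. The count minimum was passed by 3 ONH IP and 3 ONP IP libraries for Vsnl1, and by 5 and 1 for Hpca. Such low nerve counts leave the size of these estimates poorly fixed. The Hpca estimate was 9.62 without ONH IP replicate 7, a fit in which the retinal libraries alone kept the gene. Of the lower genes, the mitochondrial sensor Efhd1 averaged 27.2 CPM in Retina IP, against 359 CPM in ONH IP and 326 CPM in ONP IP (-3.02 against ONH IP, adjusted p = 0.000245, and -2.97 against ONP IP, adjusted p = 0.000202), and Pdcd6 was lower than in ONP IP (-0.87, adjusted p = 0.0134, but -0.35 with adjusted p = 0.596 without ONP IP replicate 7). Guca1a (-4.49, adjusted p = 0.000191) and Rcvrn (-4.57, adjusted p = 0.000343), sensors of photoreceptors, were called lower than in ONH IP, and 1 library sets this. Rcvrn had 7.08 to 45.9 CPM in Retina IP, against 818 CPM in ONH IP replicate 7 and 0.203 to 9.05 CPM in the other 6 ONH IP libraries. Guca1a had 12.8 to 66.3 CPM in Retina IP, against 1160 CPM in ONH IP replicate 7 and 1.35 to 18.6 CPM in the other 6. Without that library the estimates were -2.77 (adjusted p = 0.0923) for Guca1a and -2.95 (adjusted p = 0.12) for Rcvrn. Between the nerve regions 5 were higher in ONH IP and 0 lower, where 725 of 16355 genes were higher and 498 lower. These 5 were led by Guca1b (4.99, adjusted p = 0.00101) and Guca1a (4.30, adjusted p = 0.00117) of photoreceptors and Cabp5 (6.59, adjusted p = 0.00115) of bipolar cells. ONH IP replicate 7 was the highest library of each of these 3 genes. Without it the estimates were 4.70 for Guca1b, 3.88 for Guca1a and 7.48 for Cabp5, and 5 genes of the list were called. In that fit 641 of 16145 genes were called higher in ONH IP and 349 lower. edgeR called 0 of the 22 between Retina IP and Retina input, where 1 was higher and 7 lower at an unadjusted p under 0.05. At that threshold, 1771 of the 15181 genes tested were higher and 1585 lower.

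The genes whose log2 levels followed each member most closely over the 26 libraries are given as a description, since the libraries share region, batch and cell makeup. For S100b these were Scrg1 (Pearson r = 0.979) and Mgst1 (0.971). Scrg1 averaged 63.6 CPM in Retina IP, against 99.7 CPM in ONH IP, 99.2 CPM in ONP IP and 11.8 CPM in Retina input. For S100a16 they were Capg (0.989) and Cd63 (0.986), for S100a6 Hspb1 (0.966) and Mndal (0.966), and for S100a11 Gpx1 (0.963) and Emp3 (0.962). Capg, an actin-capping protein, averaged 17.3 CPM in Retina IP, against 152 CPM in ONH IP, 124 CPM in ONP IP and 6.68 CPM in Retina input. S100a1 was followed by Tmem205 (0.968) and Fxyd1 (0.965) and S100a13 by Fxyd1 (0.964) and Mt2 (0.959), so Fxyd1, a regulator of the sodium pump, appeared for both genes of the head-to-head pair. The metallothionein genes Mt2 (0.851) and Mt1 (0.848) came closest to S100a4, whose counts are few. S100a10 had Eif1b (0.948) and Fam92a (0.935), and Eif1b averaged 165 CPM in Retina IP, against 153 CPM in ONH IP, 111 CPM in ONP IP and 305 CPM in Retina input.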

How the data were processed

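RNA was sequenced from 26 libraries. Per the submitters' processing notes, the authors used Salmon 1.6.0 and the mm10 build, and the deposited table holds the estimated count of each of 54532 genes in every library; how transcripts were summed to genes and whether strand was used are not given in the sources used here. Estimated counts were rounded to whole numbers. Symbols, positions and exon lengths came from GENCODE M21 (54409 symbols matched), and upstream sequences from RefSeq.

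Group differences come from edgeR 4.0.16 in R 4.3.3: TMM normalization, the filterByExpr filter (count of at least 10, total of at least 15) and the quasi-likelihood F test. A gene is called where the p adjusted over all genes tested (Benjamini-Hochberg) is under 0.05. Retina IP and Retina input were fitted on their 12 libraries, and the 3 region comparisons on the 20 IP libraries together, with batch as a covariate. SE is the log2 fold change divided by the root of F. CPM uses library totals. Fits were tested on simulated data. Ranges lie apart where every library of a group is below every library of the other.

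Named genes were the 8 members, the 2 genes most correlated with each in log2(CPM + 0.5) among 17173 genes, and up to 3 called genes per direction of each of 3 function lists. The 13 marker lists were summed. Members, lists and tests were chosen with earlier results of these data known. Alternatives were other size factors, no filter, DESeq2 1.42.0, limma-voom (limma 3.58.1), all 26 libraries, fits within a batch or without its term, fits of the compared groups alone, a replicate block, and each library left out; 1, without the batch 2 nerve libraries and the batch term, was chosen after seeing the data. Figures were drawn with matplotlib 3.10.9.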

Additional observations from a re-analysis of the deposited data

Results flagged for a closer look

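In 9 of 32 groups of member levels, 1 library lay far from the rest of its group, with a gap to its nearest neighbour above Dixon's critical value. Chance gives this in about 1 in 20 groups. The members share libraries and many of their levels move together, so the flags are not separate events to set against that rate. ONP IP replicate 7, the batch 2 library of that region, was the high library for 5 genes. It had 2040 CPM of S100b, against 903 to 1200 CPM in the other ONP IP libraries, 1170 CPM of S100a1 (332 to 616 CPM in the others), 226 CPM of S100a13 (38.7 to 62.3 CPM), 942 CPM of S100a6 (105 to 345 CPM) and 2.49 CPM of S100a4 (0.146 to 0.984 CPM). ONH IP replicate 7, also of batch 2, had 4.79 CPM of S100a4, against 0.449 to 2.04 CPM in the other ONH IP libraries. Retina input replicate 2 had 519 CPM of S100b (111 to 223 CPM in the others), 300 CPM of S100a16 (76.0 to 112 CPM) and 39.1 CPM of S100a6 (8.69 to 14.9 CPM). Batch and mitochondrial share move with these libraries, and their part was not tested.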

How the results depend on the processing

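The number of S100 genes called, S100a4 included, was 6 of 8 for Retina IP over ONH IP and 6 for Retina IP over ONP IP, and it stayed between 4 and 7 under every alternative run. For Retina IP over Retina input it was 0, against 1 with DESeq2 and 2 with all 26 libraries in 1 fit. For ONH IP over ONP IP it was 0, against 2 with DESeq2, 2 with limma-voom, 4 with only these groups, 4 within batch 1, 4 with the replicate block and 0 to 2 with each library left out. Over all genes the counts moved too. For Retina IP over Retina input they were 0 with edgeR, 193 without the filter, 2032 with DESeq2, 2871 with all 26 libraries, 49 without input replicates 1 and 2, and 381 and 246 without IP replicate 1 or 5. For Retina IP over ONH IP (5532 genes) they were 3596 with all 26 libraries, 8465 without the batch term, 2069 with only these groups, 818 within batch 2, 9420 without the batch 2 nerve libraries and 2984 without ONP IP replicate 7. For Retina IP over ONP IP (5371) they were 8851 without the batch term, 1690 within batch 2, 9444 without the batch 2 nerve libraries and 2155 without ONP IP replicate 7. For ONH IP over ONP IP (1223) they were 2041 with DESeq2, 511 with all 26 libraries, 2294 with only these groups, 2445 within batch 1, 3118 with the replicate block and 601 to 1566 with each library left out.

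Only uncalled estimates changed sign. For Retina IP over Retina input, limma-voom gave 0.08 for S100a1, 0.21 for S100a13 and 0.07 for S100a11. The replicate block gave 0.07 for S100a1 and 0.01 for S100a13, and leaving out input replicates 1 and 2 gave 1.19, 1.08 and, for S100a11, 0.64. With each library left out, S100a1 ranged from -0.73 to 0.31, S100a13 from -0.57 to 0.45 and S100a11 from -0.97 to 0.07. S100b over ONH IP was 0.05 with only these groups and 0.20 within batch 2. S100b over ONP IP ranged from -1.23 to 0.43 with each library left out. S100a10 over ONP IP was -0.09 with limma-voom, -0.01 with all 26 libraries, -0.30 with only these groups, -0.13 within batch 2 and -0.30 to 0.53 with each library left out. The causes were not tested.

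Same-numbered libraries deviated together only weakly (r from -0.10 to 0.23 for Retina IP and Retina input, and 0.06 to 0.41 for ONH IP and ONP IP). The labels do not pair libraries by number, and the main fits did not pair them. Yet all 6 ONH IP libraries correlated best with their own number. So did every Retina IP library except replicate 3, which correlated best with Retina input replicate 2. If the numbers do pair libraries, the main fits leave that pairing out. Between the nerve regions, 4 members were called with a replicate block, and 4 with only these groups and no block. Between Retina IP and Retina input, 0 were called with the block.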
